A study of Oryza sativa with 6 samples.

Results

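Actin, glyceraldehyde-3-phosphate dehydrogenase (GAPDH), cyclophilin and ubiquitin are measured on the rice array by control probe sets of their own, which carry the gene and the stretch of the transcript in their names. Of 57381 probe sets, 19 were chosen because they are AFFX controls whose ID holds Os followed by actin, gapdh, cyph or ubiquitin. Actin had 7 of them, GAPDH 6, cyclophilin 3 and ubiquitin 3, with separate probe sets for the 5′ end, the middle and the 3′ end of the transcript. They were measured in immature rice endosperm at 9 days after flowering, in plants grown in a field. Wild type was the cultivar Dongjin and the mutant was osbzip58-1 in the Dongjin background, a line named for the bZIP transcription factor OsbZIP58. Each genotype had 3 biological replicates, each on its own 1-colour array. The nature of the mutation and whether grains were pooled are not given in the sources used here.

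Actin forms the filaments of the plant cytoskeleton. GAPDH is the glycolytic enzyme that oxidises glyceraldehyde 3-phosphate, and glycolysis feeds a tissue that imports sucrose and stores starch. Cyclophilins are peptidyl-prolyl isomerases that help proteins to fold, and ubiquitin is the small protein joined to others to mark them for degradation or sorting. All 4 are widely used as reference genes, because every living cell needs their products. A reference gene is useful only where its level does not follow the condition studied.

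Values are log2 MAS5 signals as deposited, so a step of 1 is a doubling. The median rice probe set of an array was at 5.61 to 5.91. The background level, the 95th percentile of 95 negative control probe sets, ranged over the arrays from 5.50 to 6.27. The annotation used here gave 1 gene for 22436 of 57194 rice probe sets, several for 95 and none for 34663, and it held 0 of the 19 control probe sets. Which gene copies the controls target is therefore not known here. OsbZIP58 was not found by name in it and was not analysed here. Storage genes of endosperm were bright. The glutelin GluA1 was between 15.90 and 16.01 in wild type and between 15.09 and 15.50 in osbzip58-1 (limma, adjusted p = 0.0218). That adjusted p ranged from 0.0131 to 0.378 over the alternative runs. Granule-bound starch synthase, Wx, reached 15.63 in wild type and 15.42 in osbzip58-1 in its brightest probe set (limma, adjusted p = 0.078). The 2 prolamin probe sets, for another storage protein, were between 15.23 and 15.47 in wild type and fell to between 11.24 and 12.81 in osbzip58-1 (limma, adjusted p = 0.000332 and 0.000493). Of 8 tested probe sets of these 3 genes, all 8 were below 0, 4 were called lower and 0 higher. Over all tested probe sets 3.24% were called lower, and among the brightest 1% of rice probe sets 22.2%. Hybridisation spike-ins, added after labelling, averaged 12.48 ± 0.0305 in wild type and 12.05 ± 0.118 in osbzip58-1 (SD, n = 3 each). The 36 probe sets of the poly-A spike-ins averaged 9.12 ± 0.0691 and 8.55 ± 0.216, and the 5 ribosomal RNA probe sets averaged 11.87 ± 0.233 and 12.53 ± 0.202. The part of these differences in the results below was not tested. Precision is set by the number of arrays, 3 in each genotype. An exact two-sided permutation of 3 arrays against 3 cannot give a p below 0.1, so that test could not pass a threshold of 0.05.

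Of the 19 control probe sets, 16 were above background on all 6 arrays. The other 3 were the GAPDH probe sets spelled AFFX-Os-gapdh, with a hyphen. AFFX-Os-gapdh-5_at read 4.59, 0.35 and 4.26 in wild type and 5.46, 1.18 and 4.82 in osbzip58-1 (replicates 1, 2 and 3 in order, here and below), and AFFX-Os-gapdh-M_at read 1.20, 3.04 and 4.97 and then 5.39, 3.89 and 2.40. Both were below background on all 6 arrays. AFFX-Os-gapdh-3_at read 3.14, 6.11 and 5.40 in wild type and 5.78, 1.11 and 6.25 in osbzip58-1, above background in mutant replicates 1 and 3 only. The 3 spelled AFFX-Os_Gapdh were bright on the same arrays. No fold change is given for the 3 dim ones.

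**Figure D1:**
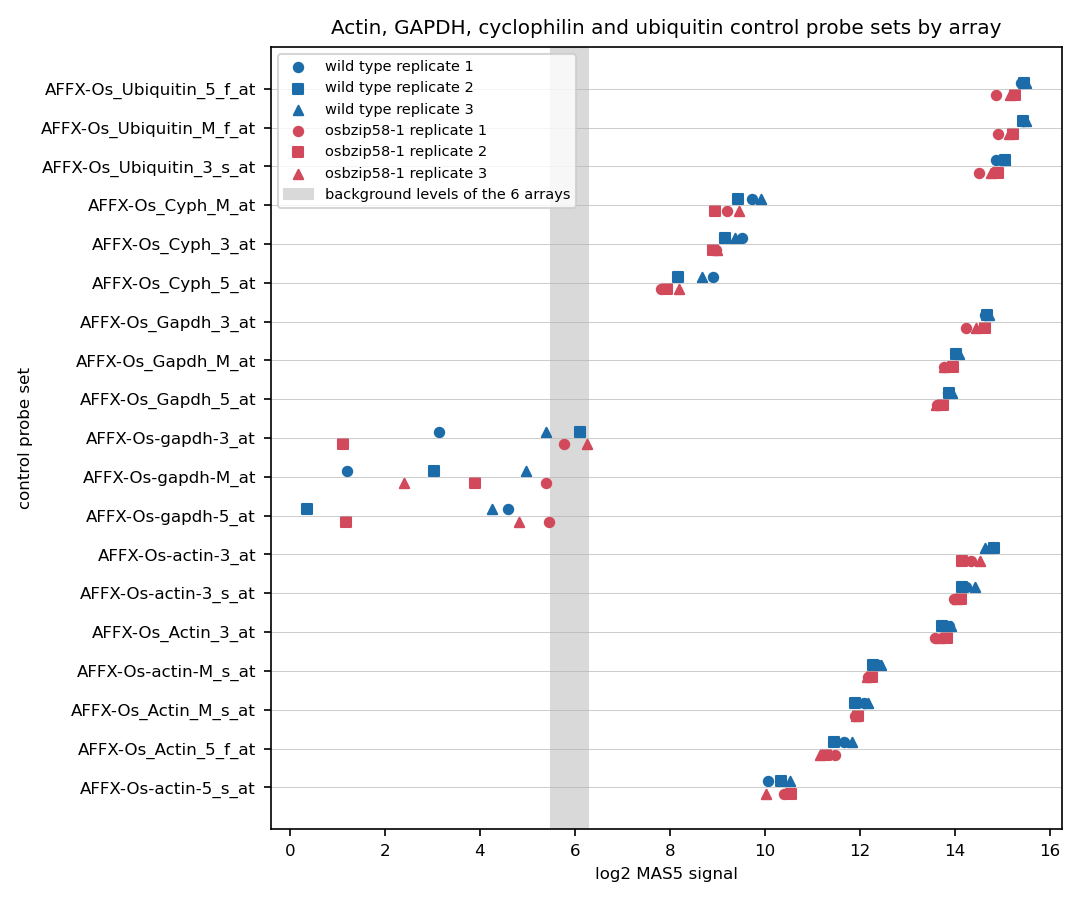
Log2 MAS5 signal (x axis) of the 19 control probe sets (y axis) on each of the 6 arrays, in blue for wild type and red for osbzip58-1, with a marker shape for each replicate. The grey band spans the background levels of the arrays, 5.50 to 6.27, and 16 probe sets lie to its right on every array, whereas the 3 spelled AFFX-Os-gapdh lie at or below it.

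Ubiquitin gave the brightest of these signals. AFFX-Os_Ubiquitin_M_f_at, for the middle of the transcript, read 15.44, 15.43 and 15.49 in wild type and 14.91, 15.23 and 15.15 in osbzip58-1. On each array between 23 and 39 rice probe sets were brighter, and the mutant values all lay below the wild type values. AFFX-Os_Ubiquitin_5_f_at, for the 5′ end, read 15.40, 15.46 and 15.50 in wild type and 14.87, 15.27 and 15.16 in osbzip58-1, again without overlap. AFFX-Os_Ubiquitin_3_s_at, for the 3′ end, read 14.86, 15.05 and 15.05 and then 14.52, 14.91 and 14.77. Here mutant replicate 2 lay above wild type replicate 1. Mutant replicate 1 was the lowest array for all 3 ubiquitin probe sets, and it also had the lowest hybridisation spike-ins, at 11.92 against 12.11 and 12.12 in the other mutant arrays. Over the 3 probe sets ubiquitin averaged 15.30 ± 0.0569 in wild type and 14.98 ± 0.188 in osbzip58-1 (SD, n = 3 each), a log2 difference of -0.32 on the authors' scale but 0.063 after quantile normalization and 0.10 after scaling to the spike-ins (exact two-sided permutation p = 0.1 on the authors' scale).

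The 3 bright GAPDH probe sets were nearly constant among wild type arrays. AFFX-Os_Gapdh_3_at read 14.64, 14.67 and 14.72 in wild type and 14.24, 14.63 and 14.45 in osbzip58-1, so mutant replicate 2 stood just below wild type and replicate 1 lowest. AFFX-Os_Gapdh_M_at read 14.02, 14.03 and 14.09 and then 13.77, 13.97 and 13.77. AFFX-Os_Gapdh_5_at read 13.86, 13.87 and 13.94 and then 13.63, 13.75 and 13.61. The genotypes did not overlap in any of the 3. Their mean was 14.20 ± 0.0396 in wild type and 13.98 ± 0.123 in osbzip58-1 (SD, n = 3 each), a log2 difference of -0.22 on the authors' scale but -0.0031 after quantile normalization and 0.20 after scaling to the spike-ins (exact two-sided permutation p = 0.1 on the authors' scale). GAPDH exceeded between 98.9% and 99.7% of rice probe sets in signal.

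Actin was measured by 7 probe sets whose signals spread over a wide range. AFFX-Os-actin-3_at, at the 3′ end, read 14.78, 14.82 and 14.63 in wild type and 14.35, 14.16 and 14.54 in osbzip58-1, with no overlap. Its log2 difference was -0.40 on the authors' scale and 0.028 after scaling to the spike-ins (limma on the authors' scale, SE 0.113, adjusted p = 0.0709). This was the lowest adjusted p of the 16. Without mutant replicate 3 the difference passed the threshold, at -0.49 and an adjusted p of 0.0451 (limma), in a fit that called 4.41% of all probe sets. The other 3′ probe sets differed less. AFFX-Os-actin-3_s_at read 14.24, 14.15 and 14.42 in wild type and 13.99, 14.13 and 14.05 in osbzip58-1. AFFX-Os_Actin_3_at read 13.88, 13.73 and 13.91 and then 13.58, 13.84 and 13.68, with overlap.

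The middle and 5′ probe sets of actin were dimmer. AFFX-Os-actin-M_s_at read 12.39, 12.27 and 12.44 in wild type and 12.17, 12.26 and 12.15 in osbzip58-1, without overlap. AFFX-Os_Actin_M_s_at read 12.08, 11.90 and 12.18 and then 11.89, 11.97 and 11.92, with overlap. At the 5′ end, AFFX-Os_Actin_5_f_at read 11.66, 11.45 and 11.84 in wild type and 11.47, 11.28 and 11.17 in osbzip58-1. Overlap there came from mutant replicate 1 and wild type replicate 2, which read almost alike. AFFX-Os-actin-5_s_at, the dimmest actin probe set, read 10.06, 10.34 and 10.52 and then 10.41, 10.56 and 10.03, and it was the only 1 of the 16 with a mean above wild type, by 0.025. Over the 7 probe sets actin averaged 12.75 ± 0.0929 in wild type and 12.55 ± 0.0481 in osbzip58-1 (SD, n = 3 each), a log2 difference of -0.19 on the authors' scale but 0.23 after scaling to the spike-ins (exact two-sided permutation p = 0.1 on both).

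Cyclophilin was the dimmest of the 4 and, on the authors' scale, had the widest difference between genotypes. AFFX-Os_Cyph_3_at read 9.51, 9.16 and 9.38 in wild type and 8.97, 8.90 and 8.99 in osbzip58-1, without overlap. AFFX-Os_Cyph_M_at read 9.72, 9.44 and 9.92 and then 9.20, 8.95 and 9.46, and AFFX-Os_Cyph_5_at read 8.90, 8.18 and 8.68 and then 7.81, 7.94 and 8.20. In both, mutant replicate 3 lay just above wild type replicate 2, which was the lowest wild type array for all 3 cyclophilin probe sets. Its signal exceeded between 68.5% and 84.4% of rice probe sets. On the authors' scale the log2 differences were -0.40, -0.49 and -0.60 from the 3′ end over the middle to the 5′ end (limma, SE 0.143, 0.175 and 0.219; adjusted p = 0.138, 0.138 and 0.144), and that of the 3′ probe set was 0.027 after scaling to the spike-ins. The mean was 9.21 ± 0.247 in wild type and 8.71 ± 0.152 in osbzip58-1 (SD, n = 3 each), a log2 difference of -0.50. This was the only mean of the 4 genes that stayed below wild type under all 4 other scalings and whose genotypes did not overlap under quantile normalization, median centring and cyclic loess, at -0.56, -0.38 and -0.56. On the spike-in scale it was -0.071 (exact two-sided permutation p = 0.6).

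None of the control probe sets passed the test. limma fitted 34986 probe sets together, and 6.47% of them had an adjusted p under 0.05, against 0 of the 17 control probe sets that passed the filter on dim values, 16 of them above background on all arrays. Without adjustment 9 of the 16 had a p under 0.05, as did 21.6% of all tested probe sets and 61.2% of the brightest 1% of rice probe sets. By direction, 3.24% of all tested probe sets were called lower in osbzip58-1 and 3.24% higher. The fitted log2 differences of the 16 lay between -0.60 and 0.025, with 15 below 0 and a median of -0.25, whereas the median over all tested probe sets was 0.0015. These 16 measure 4 genes on the same arrays, so counts of them, here and below, are not counts of independent results. The 95% confidence interval reached a change of -1 in 1 of the 16, AFFX-Os_Cyph_5_at, at -1.09 to -0.11, and stayed short of it in the other 15. A p above the threshold does not show that these transcripts were at the same level.

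The genotypes did not overlap in 9 of the 16, against 27.8% of all tested probe sets. The mutant was lower in all 9, against 14.0% of all tested probe sets, and higher in 0, against 13.8%. Signal level goes with this count. Among the brightest 1% of rice probe sets, 572 with a mean signal of at least 13.74, the median log2 difference was -0.28, 88.1% were below 0 and 62.9% were lower without overlap. Among the brightest 10% the median was -0.043, with 55.9% below 0 and 26.8% lower without overlap. Ubiquitin, GAPDH and the 3′ actin probe sets lie at or near the brightest 1%, and their differences of -0.14 to -0.40 lie around its median. Cyclophilin, at 8.59 to 9.69 in wild type, was dimmer than the brightest 10%, which began at 10.78. Whether signal level accounts for the differences was not tested.

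**Figure D2:**
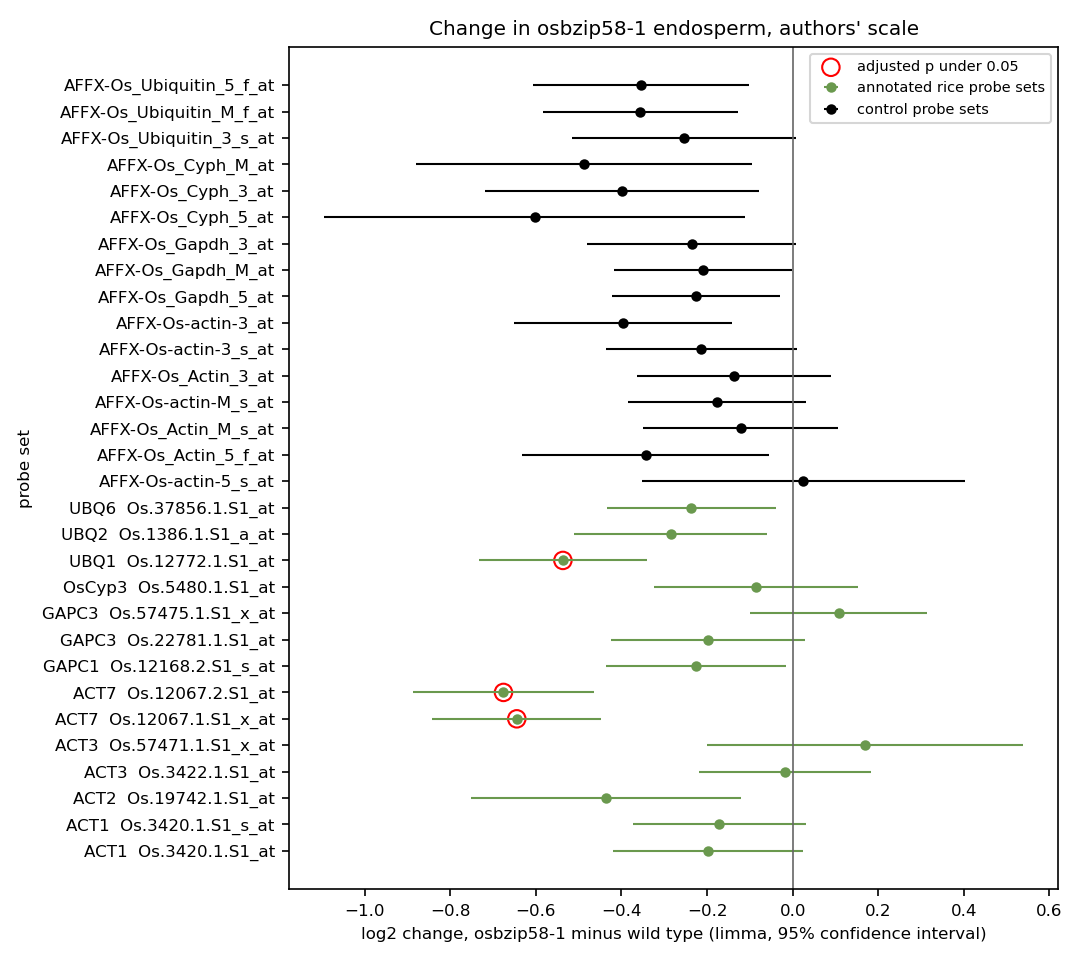
Log2 change of osbzip58-1 minus wild type (x axis, authors' scale) with its 95% confidence interval for the 16 control probe sets above background (black) and 14 annotated rice probe sets of the same gene families (green). Red rings mark an adjusted p under 0.05, which only ACT7 and UBQ1 reached on this scale, and 15 of the 16 control probe sets lie below 0 here whereas 14 lie above it on the spike-in scale.

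The direction depended on how the arrays were made comparable. On the authors' scale 15 of the 16 control probe sets were below 0 and after median centring also 15, after cyclic loess 16, after quantile normalization 10 and on the spike-in scale 2. The median over tested rice probe sets moved with it, to 0.12 after median centring and 0.43 on the spike-in scale. Measured against that median, the means of actin, GAPDH, cyclophilin and ubiquitin were lower on the authors' scale and after median centring, spike-in scaling and cyclic loess. The exception was quantile normalization, which put ubiquitin above it. None of the 16 passed the threshold under these scalings, although limma called 5.69% of all tested probe sets after quantile normalization, 5.12% after median centring, 6.07% after cyclic loess and 27.0% on the spike-in scale. The lowest adjusted p was 0.0518, on the spike-in scale, for AFFX-Os_Actin_3_at at 0.29 (limma).

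**Figure D3:**
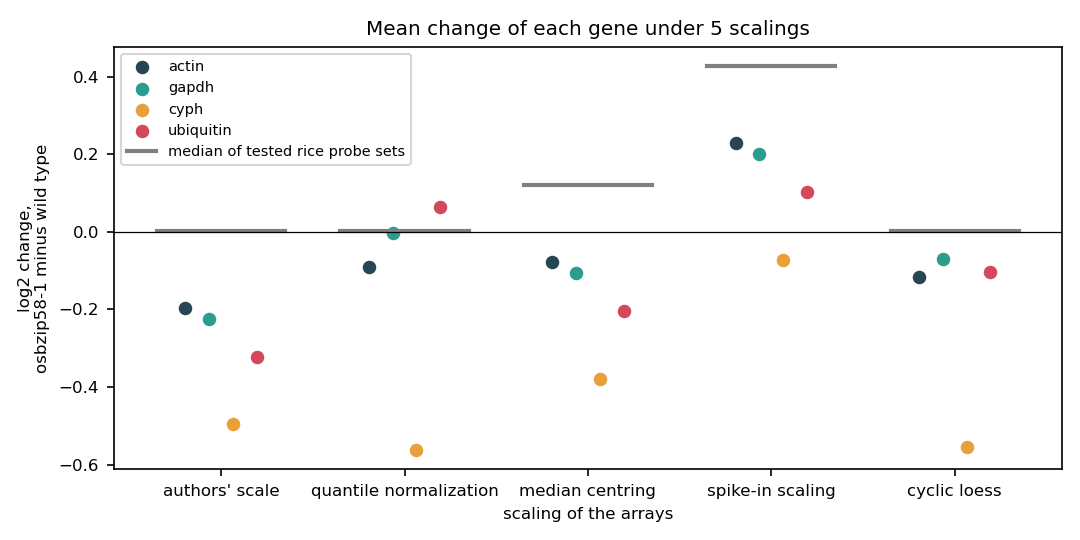
Mean log2 change of each gene, osbzip58-1 minus wild type (y axis), on the authors' scale and after 4 other scalings (x axis), with a grey line at the median of the tested rice probe sets. Actin and GAPDH turn above 0 on the spike-in scale, ubiquitin turns above 0 there and after quantile normalization, and cyclophilin stays below 0 at -0.071 to -0.56.

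The difference between a pair of genes on the same array does not depend on that array's scaling factor. On the authors' scale all 6 pairs of the 4 genes overlapped between the genotypes, and the exact two-sided permutation p, adjusted over the 6, was 0.6 for each. After quantile normalization and cyclic loess, which reshape an array beyond a single factor, the 3 pairs with cyclophilin no longer overlapped, nor did actin minus ubiquitin after quantile normalization, at -0.15. Actin minus GAPDH was -1.46 ± 0.0604 in wild type and -1.43 ± 0.0945 in osbzip58-1 (SD, n = 3 each), the smallest difference of the 6, at 0.028 on the authors' scale but -0.086 after quantile normalization and -0.046 after cyclic loess. This pair also varied least over the 6 arrays, with an SD of 0.0726, followed by GAPDH minus ubiquitin at 0.0864 and actin minus ubiquitin at 0.144. The 3 pairs with cyclophilin, the dimmest of the 4 genes, varied more, at 0.241 to 0.260. Whether signal level accounts for that spread was not tested. Actin minus cyclophilin was higher in osbzip58-1 by 0.30 on average, and by 0.47 and 0.44 after quantile normalization and cyclic loess. GAPDH minus cyclophilin differed by 0.27, and by 0.56 and 0.49 after those scalings, but by 0.15 without mutant replicate 2 and 0.18 without wild type replicate 1. Cyclophilin minus ubiquitin differed by -0.17, and by -0.63 and -0.45 after those scalings, but by -0.038 without mutant replicate 2 and -0.060 without wild type replicate 1. Across the 6 arrays the mean levels of GAPDH and ubiquitin had a Pearson r of 0.956 and those of GAPDH and cyclophilin of 0.640, values that share the arrays and their scaling factors.

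Over the 6 arrays the SD of a control probe set ran from 0.114 for AFFX-Os_Actin_M_s_at to 0.423 for AFFX-Os_Cyph_5_at, with a median of 0.211. The brightest 1% of rice probe sets had a median SD of 0.202 and the brightest 10% of 0.182. Of the 16 control probe sets, 7 had a smaller SD than the median of the brightest 10%, among them both middle actin probe sets, at 0.114 and 0.116, and none of cyclophilin or ubiquitin. Ubiquitin lies in the brightest 1%, and of its probe sets only AFFX-Os_Ubiquitin_3_s_at, at 0.200, was under the median SD of that set. Cyclophilin was dimmer than both of these sets, and over all tested probe sets the median SD was 0.360. All these SDs include any difference between the genotypes.

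Signals at the ends of a transcript were set against each other next, since a 3′ labelling kit reaches the 5′ end less well when RNA is broken. AFFX-Os_Ubiquitin_3_s_at minus AFFX-Os_Ubiquitin_5_f_at was -0.54, -0.41 and -0.45 in wild type and -0.36, -0.37 and -0.38 in osbzip58-1, so the genotypes did not overlap, with a difference of 0.10. It was 0.028, with overlap, after quantile normalization and 0.062 without wild type replicate 1. The GAPDH pair was 0.78, 0.80 and 0.78 and then 0.62, 0.87 and 0.85, where the mutant arrays lay on both sides of wild type. The cyclophilin pair was 0.62, 0.98 and 0.70 and then 1.16, 0.95 and 0.79, with overlap. Probe sets differ in affinity, so the sign of a ratio by itself says nothing of RNA breakage. The types can differ within a pair, as _s_at against _f_at for ubiquitin, and which gene copies each targets is not known here. A pair therefore need not measure both ends of the same transcript.

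Actin gave the largest ratios, and they did not go the same way. AFFX-Os-actin-3_at minus AFFX-Os-actin-5_s_at was 4.71, 4.48 and 4.11 in wild type and 3.94, 3.6 and 4.51 in osbzip58-1, a mean difference of -0.42. That difference was -0.051 after quantile normalization, -0.21 after cyclic loess and between -0.67 and -0.21 without 1 array, the extremes being without mutant replicates 3 and 2. With AFFX-Os-actin-3_s_at against the same 5′ probe set it was 4.18, 3.81 and 3.90 and then 3.58, 3.58 and 4.02. The pair AFFX-Os_Actin_3_at and AFFX-Os_Actin_5_f_at gave 2.22, 2.29 and 2.07 and then 2.11, 2.57 and 2.51, a mean difference of 0.21. All 3 actin pairs overlapped between the genotypes on the authors' scale, and the last did not after quantile normalization, at 0.37. The exact two-sided permutation p, adjusted over the 6 pairs of probe sets, was 0.36 for 5 of them and 1 for GAPDH, and 3 arrays against 3 cannot give an unadjusted p below 0.1.

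**Figure D4:**
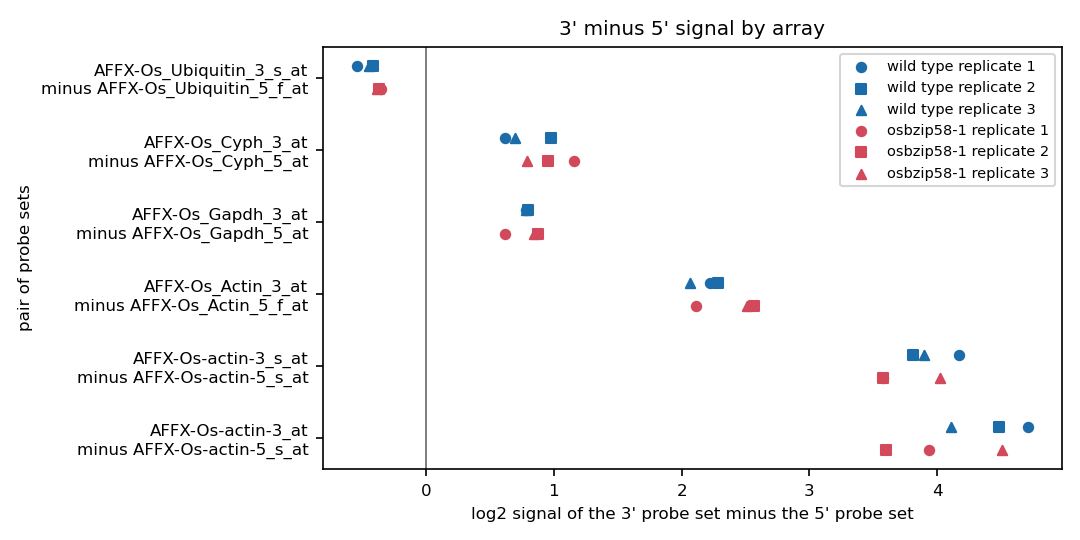
Log2 signal of the 3′ probe set minus that of the 5′ probe set (x axis) for 6 pairs (y axis) on each array, in blue for wild type and red for osbzip58-1. Ubiquitin, with osbzip58-1 between -0.38 and -0.36 and wild type between -0.54 and -0.41, is the only pair without overlap on the authors' scale. After quantile normalization it overlaps and the pairs of GAPDH and of AFFX-Os_Actin_3_at do not.

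Rice probe sets annotated to genes of these families were also measured, although those of the _s_at, _x_at and _a_at types can bind related transcripts. Gene names from RefSeq gave 12 genes, of which 11 had a probe set, 18 probe sets in all. Of these, 14 were above background on all arrays and 16 were tested. The call was lower in osbzip58-1 for 3 and higher for 0, against 3.24% in each direction over all tested probe sets, and the median log2 difference was -0.21. Among the brightest 1% of rice probe sets, the range of signal of the 3 calls, 22.2% were called lower and 0.524% higher. On the spike-in scale 0 family probe sets were called lower and 3 higher, and after quantile normalization 2 lower and 1 higher. Over all 34986 tested probe sets, 338 were called lower and 9097 higher on the spike-in scale, and 1047 lower and 945 higher after quantile normalization. The list was made with earlier results of these data known.

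ACT7 (LOC4325068), an actin gene, fell in both of its probe sets. One read 14.49, 14.64 and 14.53 in wild type and 13.76, 13.97 and 13.91 in osbzip58-1, a log2 change of -0.68 (limma, SE 0.0944, adjusted p = 0.00527). The other, of the _x_at type, read 14.60, 14.50 and 14.59 and then 13.84, 13.99 and 13.92, a change of -0.64 (adjusted p = 0.00485). Both stayed below 0 under all scalings, at -0.44 and -0.40 after quantile normalization. Both lost their call on the spike-in scale, at -0.25 and -0.22 with adjusted p of 0.0527 and 0.0921 (limma), and without a variance trend, at 0.102 and 0.1. ACT1 (LOC4333919) did not pass the test. Its probe sets read 14.72, 14.75 and 14.59 against 14.34, 14.56 and 14.57, and 14.23, 14.11 and 14.31 against 14.00, 14.10 and 14.03, with adjusted p of 0.286 and 0.311.

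The difference between these actin genes was tested within each array, a comparison chosen after the values were seen. ACT7 minus ACT1 was 0.067, 0.14 and 0.11 in wild type and -0.37, -0.35 and -0.39 in osbzip58-1. The mean difference was -0.48, with no overlap. The exact two-sided permutation p was 0.1, the lowest that 3 arrays against 3 can give, or 0.125 adjusted over 5 such comparisons. Against the 7 control actin probe sets ACT7 was lower by a similar amount, at -0.47, with the same p values. The other actin genes were not called on the authors' scale. ACT2 (LOC4349087) read 13.58, 13.71 and 13.89 and then 13.05, 13.58 and 13.24, with a gap between the genotypes smaller than the printed decimals (limma, adjusted p = 0.101), and passed only without mutant replicate 2, at 0.0408. The brighter probe set of ACT3 (LOC4334702) read 12.05, 12.06 and 12.05 and then 12.04, 12.11 and 11.96, with overlap, and its difference of -0.018 turned above 0 after quantile normalization, median centring, cyclic loess and spike-in scaling, where it passed at 0.41 (adjusted p = 0.0229).

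Among ubiquitin genes, UBQ1 (LOC4332169), which encodes ubiquitin fused to a ribosomal protein, fell. It read 14.88, 14.85 and 14.85 in wild type and 14.28, 14.43 and 14.26 in osbzip58-1, a log2 change of -0.54 (limma, SE 0.0876, adjusted p = 0.00981). The change stayed below 0 under all scalings, but its call was lost after quantile normalization, median centring and spike-in scaling, at -0.22, -0.42 and -0.11 with adjusted p of 0.126, 0.0941 and 0.393 (limma). The call was also lost without a variance trend, at 0.121, and without wild type replicate 3, at 0.0582. UBQ2 (LOC4347896), a second fusion of this kind, read 14.22, 14.02 and 14.28 and then 13.83, 13.98 and 13.84, and UBQ6 (LOC4337883), a fusion with another ribosomal protein, read 14.26, 14.19 and 14.25 and then 13.93, 14.10 and 13.95. Neither passed, with adjusted p of 0.132 and 0.156. Contrasts of UBQ1 within arrays were also chosen after the values were seen, UBQ1 being the ubiquitin gene that was called. Within arrays UBQ1 minus UBQ6 was 0.62, 0.66 and 0.60 in wild type and 0.34, 0.33 and 0.31 in osbzip58-1, without overlap (exact two-sided permutation p = 0.1, adjusted 0.125). UBQ1 minus UBQ2 differed by -0.25, without overlap and with the same p values. UBQ1 minus the control ubiquitin probe sets overlapped, with a difference of -0.22 (exact two-sided permutation p = 0.2, adjusted 0.2).

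Genes for GAPDH and cyclophilin were not called on the authors' scale. GAPC1 (LOC4344564), a cytosolic GAPDH, read 15.07, 14.96 and 15.07 in wild type and 14.70, 14.93 and 14.80 in osbzip58-1, with an adjusted p of 0.199. GAPC3 (LOC4329892) had bright probe sets that disagreed, with log2 differences of -0.20 and 0.11, neither of which passed on the authors' scale. The second, an _x_at probe set, passed after quantile normalization, at 0.31, and on the spike-in scale, at 0.53 (limma, adjusted p = 0.0489 and 0.0059). GAPC2 (LOC4336216) was above background on 3 arrays only, those of osbzip58-1, at 6.39, 6.23 and 6.21 against 5.34, 5.94 and 5.90, so no fold is given. The background levels themselves differed, at 6.03, 6.27 and 5.92 in wild type and 5.74, 5.50 and 6.11 in osbzip58-1. GAPC2 did not pass the test (limma, adjusted p = 0.466). The cyclophilin OsCyp3 (LOC4346316) read 12.67, 12.37 and 12.62 and then 12.44, 12.54 and 12.41, a difference of -0.086 that turned above 0 after median centring and spike-in scaling. It was brighter than the control cyclophilin probe sets, but signals of different probe sets do not rank amounts of RNA.

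The rice probe set most like each gene over the 6 arrays was found by Pearson r on the authors' scale among 34883 tested. For ubiquitin it was a probe set annotated LOC4335042, with an r of 0.9996, reading 15.00, 15.08 and 15.10 in wild type and 14.50, 14.88 and 14.77 in osbzip58-1. For actin it was one annotated LOC4333387, with an r of 0.998. For GAPDH and cyclophilin they were probe sets without annotation, with r of 0.999 each, and that for GAPDH was dim, at 2.12 to 6.29. With 6 arrays such values are common, since between 122 and 368 rice probe sets had an r above 0.95 with each gene. On the spike-in scale that number was between 27 and 878, and the best match stayed the same for cyclophilin but was another probe set for actin (LOC4338902), GAPDH (LOC4326449) and ubiquitin (without annotation).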

How the data were processed

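Each array's values are log2 signals that the authors deposited, 1 for every probe set. The submitters' processing notes name MAS5, without a version. These log2 values were analysed unaltered, with no pseudocount. RNA (0.5 ug in total) was labelled with a 3′ in vitro transcription kit, per the labels' protocols. Members and gene lists were chosen with earlier results of these data known. Probe sets at or above the 40th percentile of the rice probe sets on at least 3 arrays, controls included, were fitted with limma 3.58.1 in R 4.3.3 (eBayes with a variance trend, two-sided, Benjamini-Hochberg over all tested, threshold 0.05), after a check of the fit on simulated data. Gene means, pairs of genes and transcript ends were compared by exact two-sided permutation of 3 arrays against 3. The background level leaves out 2 reporter probe sets, a choice made after the data were seen. Named are all control probe sets of the 4 genes, the best-correlated rice probe set of each gene, and, added after the data were seen, annotated genes of the same families and other reference genes. Names came from the platform annotation and RefSeq (assembly ASM3414082v1). The replicates are those of the source labels. Sample titles number the mutant arrays 2 to 4 instead. Deviations of same-numbered arrays from their group means correlated at 0.029, -0.033 and -0.015, so the numbers were not taken as pairs. Nothing in the labels says how the replicates were separated beyond the word biological, so p-values measure the spread between these samples. Alternatives were quantile normalization, median centring, cyclic loess, scaling to 27 hybridisation spike-in probe sets, no filter, a 60th percentile filter, other variance models, the replicate block, fewer controls and leaving out each array. Plots were made in matplotlib 3.10.9 (Python 3.11.15).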

Additional observations from a re-analysis of the deposited data

How the results depend on the processing

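The count of called control probe sets, 0, held in every alternative run except without osbzip58-1 replicate 3, so that leaving out arrays gave 0 to 1. With the replicate numbers as a block it was also 0 (lowest adjusted p = 0.0766), and over all probe sets limma called 2000 in place of 2265. Over all probe sets, 9435 were called on the spike-in scale (9097 higher, 338 lower), 103 without a variance trend and 538 to 1674 without 1 array, and median centring gave 1323 higher and 470 lower. The 3 calls among annotated family probe sets, those of ACT7 and UBQ1, became 0 without a variance trend. On the spike-in scale none of those was called, and 3 different probe sets, of ACT3 and GAPC3, were called higher in osbzip58-1. The median percentile of the control probe sets was 99.2 among rice probe sets without _s_at and _x_at types, in place of 99.0. Signs turned as follows, and the cause was not tested. On the spike-in scale the means became 0.23 for actin, 0.20 for GAPDH and 0.10 for ubiquitin. In the order of probe set names there, actin became 0.028 (actin-3_at), 0.21 (actin-3_s_at), 0.25 (actin-M_s_at), 0.29 (Actin_3_at), 0.081 (Actin_5_f_at) and 0.30 (Actin_M_s_at), Cyph_3_at 0.027, GAPDH 0.19, 0.20 and 0.22 (3′, 5′ and middle), and ubiquitin 0.17, 0.070 and 0.069 (3′, 5′ and middle). There ACT3 became 0.41, OsCyp3 0.34 and the EF-1-alpha probe sets 0.10 and 0.021. After quantile normalization ubiquitin became 0.063 (0.083, 0.056 and 0.051 for 3′, 5′ and middle), actin-3_s_at 0.023, actin-5_s_at -0.028, Actin_3_at 0.034, Gapdh_3_at 0.078, ACT3 0.0061 and an EF-1-alpha probe set 0.026. Between genes, actin minus GAPDH became -0.086, actin minus ubiquitin -0.15 and GAPDH minus ubiquitin -0.066, and 3′ minus 5′ became 0.051 for actin-3_s_at and 0.14 for GAPDH. After cyclic loess actin-5_s_at became -0.0091, ACT3 0.025, actin minus GAPDH -0.046, actin minus ubiquitin -0.014 and GAPDH 3′ minus 5′ 0.036. After median centring ACT3 became 0.10 and OsCyp3 0.032. Without 1 array, actin-5_s_at ranged from -0.099 to 0.18, ACT3 from -0.054 to 0.017, actin minus GAPDH from -0.021 to 0.073 and GAPDH 3′ minus 5′ from -0.059 to 0.070. The dim AFFX-Os-gapdh probe sets have no fold and so no alternatives.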

Other observations

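Other genes often used as references were listed by name with their values in view: an elongation factor, tubulins and a pair of ubiquitin-conjugating enzymes, 12 genes with 19 probe sets, of which 18 were tested. The test called 5 lower and 1 higher in osbzip58-1, against 3.24% in each direction over all tested probe sets. Among the brightest 10% of rice probe sets 9.83% were called lower and 4.37% higher, and among the brightest 1% 22.2% and 0.524%. The called probe sets had wild type means from 10.32 to 15.19, so most were bright. TUB4 (LOC4327550), a beta tubulin, fell most. Its brightest probe set read 13.20, 13.33 and 13.45 in wild type and 11.80, 11.99 and 11.35 in osbzip58-1, a log2 change of -1.61 (limma, adjusted p = 0.00106). Another of its probe sets changed by -0.96 (adjusted p = 0.00519). The remaining TUB4 probe set was above background on 2 arrays only and did not pass (adjusted p = 0.977). TUB7 (LOC4334309), also a beta tubulin, fell by 0.70 and 0.65 on the log2 scale in its 2 probe sets (adjusted p = 0.00386 and 0.00506). TUB6 (LOC4338790), a beta tubulin as well, rose, from 10.78, 10.55 and 10.78 to 11.63, 11.37 and 11.16 (log2 change 0.68, adjusted p = 0.0210), so tubulin genes went both ways. All of these called probe sets of TUB4, TUB7 and TUB6 kept their sign under every alternative run and lost their call without a variance trend. TUB6 also lost it without wild type replicates 1, 2 and 3 or mutant replicate 2, at adjusted p between 0.0569 and 0.0773, and 1 TUB7 probe set on the spike-in scale, at 0.116. UBC5A (LOC4327162), a ubiquitin-conjugating enzyme, read 13.55, 13.62 and 13.64 and then 13.70, 13.71 and 13.81 (adjusted p = 0.403), and passed only on the spike-in scale, at 0.56 (adjusted p = 0.00305).

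The rice control probe sets for elongation factor EF-1-alpha, spelled AFFX-Os-ef1a, were dim like those spelled AFFX-Os-gapdh. The 3′ and middle probe sets were below background on all 6 arrays, at 0 to 4.43 and 0.89 to 2.78, and the 5′ probe set was above it on 3. The 2 rice probe sets annotated to EF-1-alpha (LOC4331810) averaged 15.01 ± 0.0698 and 15.19 ± 0.123 in wild type (SD, n = 3 each), and 14.69 ± 0.0264 and 14.79 ± 0.0854 in osbzip58-1. Only the second passed, at an adjusted p of 0.0412 that ranged from 0.0291 to 0.887 over the alternatives. The log2 differences of both were below 0 on the authors' scale, at -0.32 and -0.40, and above it on the spike-in scale, at 0.10 and 0.021.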
